A study of Rattus norvegicus with 24 samples.

Results

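The comparison described here set cultures of newborn rat testis cells 48 h after 2 pituitary gonadotropins, luteinizing hormone (LH) with follicle-stimulating hormone (FSH), against cultures of the same litters 12 h after those hormones. Its members were 6 of the 24 libraries of the series, 3 at 12 h and 3 at 48 h, with 1 library per litter at each time, and they were chosen by the time given in the labels. All 6 came from wild-type Sprague Dawley rats killed at postnatal day 5, whose unsorted testis cells were grown in matrigel in serum-free medium, 50% of which was replaced every 24 h. On day 10 of culture LH at 50 mIU/mL and FSH at 20 mIU/mL were added in fresh medium, and 3 cultures of a litter were pooled per library. Every library of both groups came from cultures given the hormones, and whether later changes of medium renewed them is not stated in the labels. Untreated cultures of these times were not analysed here. What the hormones did therefore cannot be told apart from what fresh medium and further time in culture did. The 0 h and 2 h libraries of the same litters are quoted for their levels only.

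LH acts on Leydig cells, the steroid-producing cells between the seminiferous tubules, through the receptor Lhcgr, and raises cyclic AMP there. Cyclic AMP drives the cholesterol carrier Star and the enzymes that turn cholesterol into androgens. FSH acts through Fshr on Sertoli cells, which line the tubules, nurse the germ cells and secrete inhibin. The tubules are wrapped in a basement membrane of type IV collagen, laminin, nidogen and perlecan, laid down by Sertoli cells and the contractile peritubular myoid cells around them.

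Messenger RNA was measured by bulk sequencing in CPM, which put the reads of each gene on 1 common scale by dividing by the library's total. The 6 libraries held 15.8 to 21.7 M reads, 1 read was worth 0.046 to 0.0633 CPM, and 4.48 to 4.69% of the reads lay outside the listed genes. A value of 0 allowed a level of up to 3 reads, or 0.138 to 0.19 CPM, for counting error only. Genes with at least 1 CPM in at least 3 of the 6 libraries were compared, which kept 12198 of 21425 genes. In litters 2 and 3 the libraries of a litter resembled each other across the 2 times, and in litter 1 this was not seen. After the time means were removed, they correlated across genes at -0.0167 in litter 1, 0.677 in litter 2 and 0.482 in litter 3. Between libraries of different litters the values ran from -0.599 to 0.271. Genes are not independent replicates, and values centred over 3 litters depend on each other. The first principal component, with 47.1% of the variance, held litter 2 at 19.6 and 21.1 and litter 3 at -16.1 and -19. Litter 1 lay between them at both times, at 2.29 and -7.93. The second, with 22.7%, held the 12 h libraries at 5.76 to 13.8 and the 48 h libraries at -17.5 to -3.76. Changes below are differences in log2(CPM + 1), 48 h minus 12 h, ± SE, levels are in CPM as mean ± SD with n = 3, and adjusted p-values are from limma with litter as a block. The sums of RNA from all cells were measured, so fewer cells of a type and less RNA per cell cannot be told apart.

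Between 12 h and 48 h the genes of the secreted proteins Sulf2, Cilp and Prss35 were among 6 genes that passed the test, 0.0492% of those tested. Sulf2, Ephx1 and Creg1 rose, and Nnat, Cilp and Prss35 fell. The 3 that rose were 0.0246% of the genes tested and the 3 that fell were 0.0246%, at an adjusted p under 0.05. At an unadjusted p under 0.05 there were 1603 genes, or 13.1%, of which 965 were higher and 638 lower at 48 h. The median change of all genes was 0.01. The counts turned on single litters. Without litter 1, 87 genes were higher and 50 lower, and leaving out only its 12 h library gave 87 and 44, or only its 48 h library 90 and 56. Without litter 2, or either of its libraries, limma called 0 genes (335 lower and 659 higher at an unadjusted p under 0.05 without the litter). Without litter 3, or either of its libraries, 3 were higher and 11 lower. On the recovered reads of all 6 libraries, edgeR called 3 higher and 4 lower and DESeq2 called 93 and 73. No gene was called without the litter block (522 higher and 294 lower at an unadjusted p under 0.05) or without the filter on low values (1107 and 768).

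Sulf2, an extracellular enzyme that removes sulfate groups from heparan sulfate, stood at 48.8, 50.7 and 54 CPM in litters 1, 2 and 3 at 12 h and at 94.7, 81.5 and 91 CPM at 48 h. The 2 groups were well apart, and the 0 h libraries, at 39.4 to 64.1 CPM, lay with those of 12 h. Its mean went from 51.2 ± 2.65 to 89.1 ± 6.79, a rise of 0.79 ± 0.07 (limma adjusted p = 0.0352). Ephx1 encodes the microsomal epoxide hydrolase, which detoxifies reactive epoxides. It stood at 45.6, 57.4 and 45.9 CPM at 12 h and at 81.6, 88.3 and 80 CPM at 48 h, a rise of 0.74 ± 0.07 (limma adjusted p = 0.0352). Creg1, a secreted and lysosomal glycoprotein, went from 63.5, 81.3 and 62.4 CPM to 108, 128 and 104 CPM, a rise of 0.71 ± 0.06 (limma adjusted p = 0.0293). In all 3 of these genes every 48 h library was above every 12 h library, and the ratio of 48 h to 12 h within a litter lay between 1.54 and 1.94.

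Nnat encodes neuronatin, a small membrane protein from an imprinted gene. It stood at 604, 343 and 432 CPM at 12 h and at 281, 205 and 216 CPM at 48 h, a fall of 0.95 on the log2 scale (SE 0.08, limma adjusted p = 0.0293). Litter 1 held the highest level at both times, and no 48 h library reached the lowest of 12 h. Nnat lies within Blcap, and the libraries did not keep strand, so reads of the pair cannot be told apart. Cilp, a matrix protein first known from cartilage, stood at 199, 183 and 309 CPM at 12 h and at 111, 111 and 162 CPM at 48 h, and fell by 0.83 (SE 0.06, limma adjusted p = 0.0293). Litter 3 was the high one at both times, although at 0 h it had been the lowest, at 128 CPM against 198 and 276. Prss35, a secreted protein of the serine protease family, went from 573, 430 and 625 CPM to 349, 303 and 400 CPM and fell by 0.62 (SE 0.06, limma adjusted p = 0.0403). Its 12 h levels resembled those of 0 h, 394 to 594 CPM, and again the 12 h and 48 h libraries did not overlap. All 6 genes lost their call without litter 2, without the block and without the filter. In addition Ephx1 and Prss35 lost it without litter 3 (adjusted p = 0.0527 and 0.0577), and Cilp in the fit over all 12 libraries of the hormone experiment (0.259). The summed level of stromal and fibroblast markers, mostly Col1a1 and Col3a1, was also lower at 48 h in each litter. It is given with the matrix genes, and its part in these falls was not tested.

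**Figure D1:**
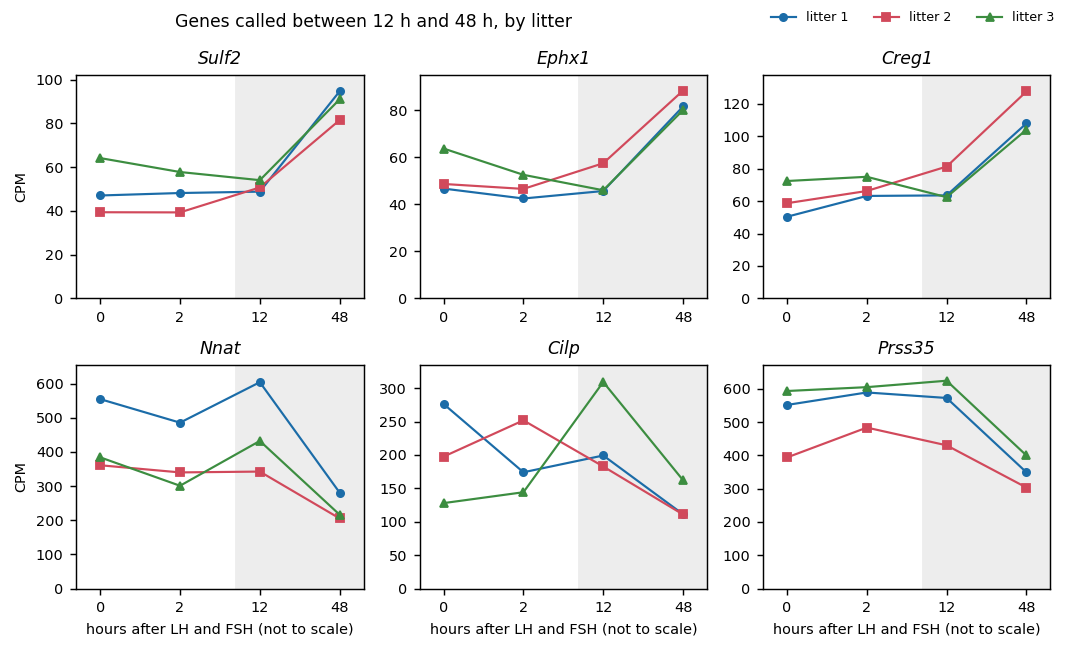
CPM of the 6 called genes (vertical axis, linear from 0) at 0, 2, 12 and 48 h after LH and FSH (horizontal axis, not to scale), with 1 line per litter and the 2 times compared shaded. In the upper row the 48 h points lie above all 12 h points (Sulf2 81.5 to 94.7 against 48.8 to 54 CPM), and in the lower row they lie below them (Prss35 303 to 400 against 430 to 625 CPM).

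Many more genes separated the 2 times without passing the adjusted test. In 915 genes, 7.5% of those tested, every 48 h library was above every 12 h library, and in 532, 4.36%, every one was below. Among those whose higher time averaged 5 CPM or more, the 12 with the largest increase beside the called ones differed by 1.06 to 2.28 and had limma adjusted p-values of 0.0521 to 0.217. Sectm1a, a small secreted and transmembrane protein, had the largest difference of these, 2.28 ± 0.41 (limma adjusted p = 0.105). It stood at 6.44, 16.6 and 7.45 CPM at 12 h and at 99.6, 50.1 and 23.9 CPM at 48 h. The size was uneven between litters, with ratios of 15.5, 3.02 and 3.21. Tgm2, the tissue transglutaminase that crosslinks matrix proteins, stood at 149, 160 and 120 CPM at 12 h and at 432, 280 and 254 CPM at 48 h (1.13 ± 0.13, limma adjusted p = 0.0521). Its 0 h libraries held 96.2 to 101 CPM. The serotonin-gated channel subunit Htr3a went from 1.57 to 2.53 CPM over the 12 h libraries to 4.2 to 7.63 CPM at 48 h, and Cdo1, the cysteine dioxygenase, from 1.38 to 2.53 CPM to 3.2 to 8 CPM. Prkcb, a protein kinase C isoform, held 33.5, 62.7 and 58.8 CPM at 12 h and 147, 97.8 and 81.1 CPM at 48 h. The others were Frmd7, L3mbtl4, Pla1a, LOC689757, Megf11, LOC100360856 and Col4a3. Litter 1 had the largest increase of the 3 litters in all 15 genes named as higher. Without litter 1, which left 2 litters, Tgm2 differed with a limma adjusted p of 0.000878 and Col4a3 with one of 0.00109. Without litter 2 neither was called, as limma then called 0 genes.

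By the same rule of no overlap and 5 CPM or more, the 12 genes with the largest decrease beside the called ones differed by -1.17 to -0.54, with limma adjusted p-values of 0.0935 to 0.244. Genes whose groups overlapped, such as Tnc at -1.22, were left out by that rule. Cell surface and matrix proteins were among them. Cd34, a sialomucin of endothelial and stromal progenitor cells, stood at 158, 134 and 215 CPM at 12 h and at 105, 98.3 and 112 CPM at 48 h (-0.66 ± 0.09, limma adjusted p = 0.0935). Cd93, a lectin-like receptor of endothelial cells, stood at 83.2, 63 and 49.5 CPM and then at 46.7, 45.8 and 38.3 CPM (-0.54 ± 0.10, 0.105). The summed level of the 10 endothelial markers came mostly from Eng. In litters 1, 2 and 3 it went from 880 to 569, 725 to 681 and 688 to 652 CPM. Of the 6 markers tested 3 had a mean difference above 0 and 3 below it. Their median was -0.01, and -0.14, 0.000677 and 0.19 in litters 1, 2 and 3. The part of these markers in the results was not tested. Thbs4, a thrombospondin of the matrix, went from 56.3, 35.6 and 35.7 CPM to 21.7, 20.5 and 25.1 CPM, and the growth factor Bmp6 from 63.5, 60.6 and 66 CPM to 31.7, 42.4 and 52.5 CPM. Neither pair of groups overlapped, and Thbs4 in litter 3 moved least of its 3 litters. The cadherin Cdh6 had the largest difference of these 12, -1.17 ± 0.27, at levels of 3.37 to 7.69 CPM at 12 h and 1.15 to 1.96 CPM at 48 h. The others were Myh4, Tead4, Mmp28, Cmklr1, Inpp4b, Armh4 and AABR07032097.1. Mmp28, a metalloprotease, averaged 0 CPM in the other (baseline) experiment of the series and 28.1 CPM in the hormone experiment, and is 1 of 218 genes whose counting may differ between the 2 experiments. Here litter 1 had the largest decrease in 10 of the 15 genes named as lower, litter 2 in 1 and litter 3 in 4.

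**Figure D2:**
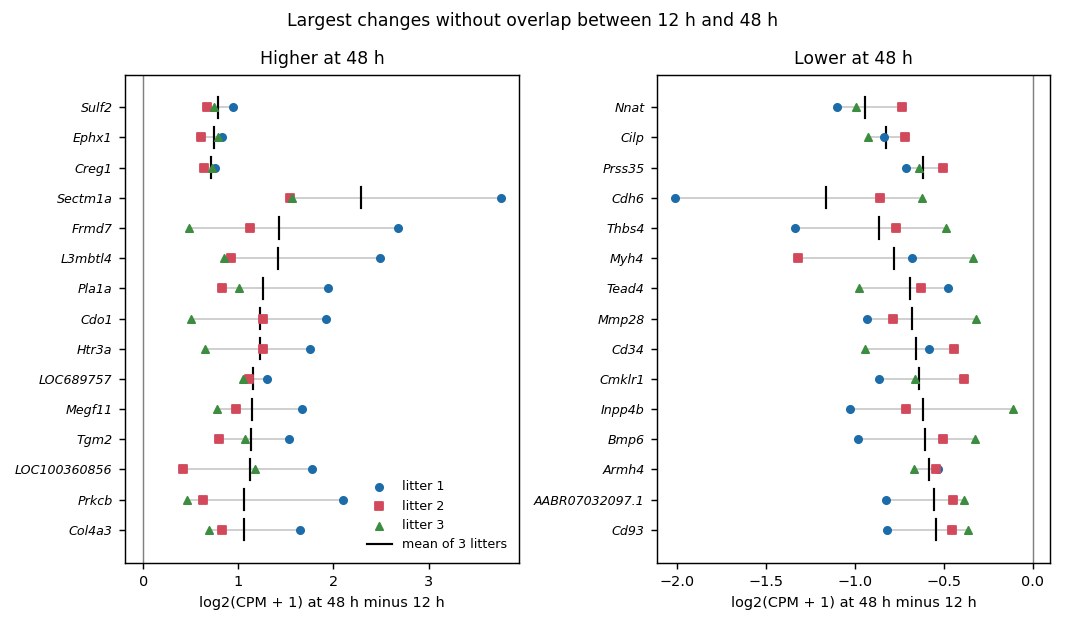
Difference in log2(CPM + 1) between 48 h and 12 h (horizontal axis) for the 15 genes named as higher (left) and the 15 named as lower (right), with 1 point per litter and a bar at the mean of 3 litters. All points of the left panel lie to the right of 0 and all points of the right panel to the left of it, and litter 1 reaches 3.76 in Sectm1a where litters 2 and 3 lie at 1.54 and 1.56.

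Most genes of the basement membrane were higher at 48 h, with the largest differences in the collagen chains Col4a3 and Col4a4. The list held 18 genes, of which 17 were tested. None was called, and 13 of the 17 were higher in all 3 litters and 0 lower in all 3, against 20.3% and 16.8% of all genes tested. In 9 of the 17 the 2 times did not overlap, against 7.5% of all genes, and 11 had an unadjusted p under 0.05, against 7.91%. The median change of the 17 was 0.28, and 0.39, 0.15 and 0.24 in litters 1, 2 and 3, beside 0.01 for all genes.

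Col4a3 and Col4a4 encode type IV collagen chains that assemble with the chain of Col4a5, and their genes are read in opposite directions from neighbouring starts. The promoter stretches of both are shown because the genes moved together and the stretches overlap. Each is the 250 bases before the start of the gene, read 5′ to 3′ on the strand of that gene from RefSeq on build GRCr8, at chr9:91323740-91323989 on the plus strand for Col4a3 and chr9:91323578-91323827 on the minus strand for Col4a4. The 2 starts lie 413 bases apart, and capitals mark the 88 bases that both stretches hold.
Col4a3: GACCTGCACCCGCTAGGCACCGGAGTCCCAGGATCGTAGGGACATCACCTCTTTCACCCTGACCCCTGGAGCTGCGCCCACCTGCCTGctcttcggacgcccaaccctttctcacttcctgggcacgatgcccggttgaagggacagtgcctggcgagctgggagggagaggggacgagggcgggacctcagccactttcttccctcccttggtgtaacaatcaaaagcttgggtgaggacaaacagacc
Col4a4: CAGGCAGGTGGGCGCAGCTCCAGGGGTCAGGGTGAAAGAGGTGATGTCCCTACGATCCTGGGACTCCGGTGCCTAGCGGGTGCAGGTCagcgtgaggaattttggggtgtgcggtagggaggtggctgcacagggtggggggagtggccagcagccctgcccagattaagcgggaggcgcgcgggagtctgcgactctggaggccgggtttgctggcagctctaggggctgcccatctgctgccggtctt
The starts of Col4a1 and Col4a2, also a head-to-head pair, lie 77 bases apart, and those of Col4a5 and Col4a6 1415 bases apart, so that the 250-base stretches of the last pair share 0 bases.

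Col4a3 stood at 92.4, 117 and 90.1 CPM at 12 h and at 292, 208 and 146 CPM at 48 h, with 52.7 to 95 CPM at 0 h. Col4a4, named like most list members below after its values were seen, stood at 557, 672 and 730 CPM at 12 h and at 1718, 1147 and 1016 CPM at 48 h. In both genes the 2 times did not overlap, and the litters kept the same order of change. The ratios in litters 1, 2 and 3 were 3.16, 1.78 and 1.62 for Col4a3 and 3.08, 1.71 and 1.39 for Col4a4. Their differences were 1.06 ± 0.17 (limma adjusted p = 0.102) and 0.96 ± 0.19 (0.131). The remaining chains differed less: Col4a6 by 0.47 ± 0.08, Col4a5 by 0.28 ± 0.06, Col4a1 by 0.15 ± 0.08 and Col4a2 by 0.12 ± 0.08. Col4a1 and Col4a2 make up the common type IV collagen of most basement membranes, and they were the 2 members of the list with the highest mean. Col4a1 stood at 5945, 6551 and 6410 CPM at 12 h and 6854, 6926 and 7114 CPM at 48 h, without overlap but with a limma adjusted p of 0.5.

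Among the laminins, the cross-shaped proteins that bind cells to the membrane, Lama2 had the largest difference. It stood at 203, 219 and 321 CPM at 12 h and at 671, 316 and 455 CPM at 48 h (0.92 ± 0.23, limma adjusted p = 0.179). Its groups overlapped, since litter 2 at 48 h lay just below litter 3 at 12 h. Lamc1 (0.32 ± 0.09), Lama1 (0.28 ± 0.06) and Lamb1 (0.20 ± 0.05) did not overlap, with Lamb1 at 864 to 920 CPM and then 1021 to 1054 CPM. Nid1, the linker between laminin and collagen, went from 1800 to 1837 CPM to 1905 to 2339 CPM, whereas Nid2 differed by 0.02 ± 0.05. The heparan sulfate proteoglycan perlecan, Hspg2, was higher in litters 1 and 3 and lower in litter 2 (648, 624 and 705 CPM, then 1016, 563 and 952 CPM). Without litter 1, whose differences in Col4a3, Col4a4 and Lama2 were the largest, the median of the list was 0.19. The summed level of the 17 Sertoli cell markers went from 4566 to 4809, 5311 to 5800 and 3832 to 4108 CPM in litters 1, 2 and 3, and that of the 12 myoid markers from 5417 to 6077, 5536 to 4912 and 5872 to 5413 CPM, and their part in the result was not tested.

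Most genes of cholesterol synthesis were lower at 48 h, by small amounts. The pathway runs from acetyl-CoA to cholesterol, which steroid-making cells use as their starting material. Its genes share control by the sterol-regulated factor Srebf2, which Insig1 helps to hold back in the endoplasmic reticulum when sterol is plentiful. The list held 25 genes, of which 24 were tested. None was called, 16 of the 24 were lower in all 3 litters and 0 higher in all 3, against 16.8% and 20.3% of all genes. An unadjusted p under 0.05 was reached by 15, all of them lower, against 5.23% of all genes. The 2 times overlapped in all 24. The median change was -0.26, and -0.40, -0.29 and -0.16 in litters 1, 2 and 3.

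The promoters of 3 members that were lower in each litter are shown as examples of a shared letter pattern, CCAAT, a box bound by the factor NF-Y. They are the 250 bases before the start in RefSeq on build GRCr8, read on the strand of the gene, at chr2:53382054-53382303 (plus) for Hmgcs1, chr4:8057770-8058019 (minus) for Insig1 and chr17:66547525-66547774 (minus) for Idi1. Capitals mark CCAAT on either strand, which reads ATTGG where it lies on the other one.
Hmgcs1: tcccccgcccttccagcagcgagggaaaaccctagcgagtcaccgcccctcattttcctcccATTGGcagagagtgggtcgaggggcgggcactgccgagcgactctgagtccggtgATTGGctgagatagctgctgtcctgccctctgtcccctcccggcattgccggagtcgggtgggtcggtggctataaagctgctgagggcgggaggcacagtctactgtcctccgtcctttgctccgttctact
Insig1: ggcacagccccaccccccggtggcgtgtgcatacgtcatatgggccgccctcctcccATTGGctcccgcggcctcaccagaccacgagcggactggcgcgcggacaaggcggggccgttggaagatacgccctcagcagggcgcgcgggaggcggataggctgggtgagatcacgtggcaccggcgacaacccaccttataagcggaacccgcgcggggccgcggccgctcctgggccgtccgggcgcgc
Idi1: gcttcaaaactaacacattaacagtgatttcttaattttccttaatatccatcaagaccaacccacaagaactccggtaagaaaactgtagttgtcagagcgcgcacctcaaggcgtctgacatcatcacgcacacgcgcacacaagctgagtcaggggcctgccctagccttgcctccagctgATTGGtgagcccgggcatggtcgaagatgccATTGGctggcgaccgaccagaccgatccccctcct
CCAAT was in 13 of the 16 cholesterol genes with a promoter in the table, or 81.2%, against 34.3% of all 27457 promoters and 35.7% of the 9734 of tested genes. CCAAT was absent from Acat2, Cyp51 and Dhcr7, of which Acat2 and Cyp51 were lower in all 3 litters. It was present in Ebp, which was not lower in every litter. Of 15 basement membrane promoters 4 held it (Lama2, Col4a1, Col4a2 and Nid1), or 26.7%. GGGCGG was in 14 of the 16, or 87.5%, against 32.4% of all promoters, 60% of those of tested genes and 73.3% of the basement membrane ones. CACNCCAC was in 3 (Acat2, Insig1 and Ebp), or 18.8%. It was in 4.84% of all promoters, 5.04% of those of tested genes and 13.3% of the basement membrane ones. CACGTG was in 1, Insig1, or 6.25%, against 5.79% of all promoters, 8.37% of those of tested genes and 0 of the basement membrane ones. Both strands were searched, and a match describes the letters only. The motifs were picked after the values were seen.

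Hmgcs1 encodes the cytosolic HMG-CoA synthase, an early enzyme of the pathway. It stood at 177, 226 and 139 CPM at 12 h and at 123.4, 158.6 and 121.9 CPM at 48 h (-0.40 ± 0.08, limma adjusted p = 0.118). Every litter was lower at 48 h, and at 2 h the same litters had stood at 340, 278 and 337 CPM. The isomerase Idi1 differed by -0.47 ± 0.10, the sterol demethylase Cyp51 by -0.42 ± 0.07, Sqle by -0.40 ± 0.09 and Acat2 by -0.38 ± 0.07, all lower in all 3 litters. Insig1 stood at 81, 102 and 54.1 CPM at 12 h and at 57.4, 79.6 and 48 CPM at 48 h (-0.34 ± 0.07, limma adjusted p = 0.149), and litter 3 moved least. Srebf2 itself differed by -0.21 ± 0.06, also lower in each litter. Dhcr7, a late enzyme of the pathway, went the other way in litter 1 (95.2 to 130 CPM) and differed by 0.08 ± 0.12.

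**Figure D3:**
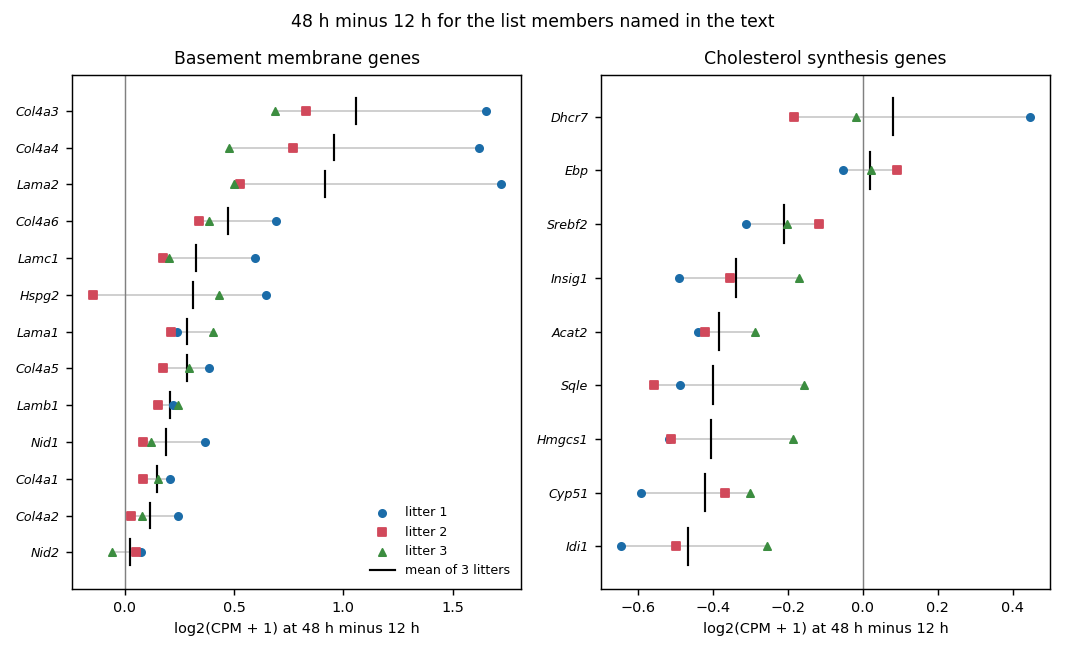
Difference in log2(CPM + 1) between 48 h and 12 h (horizontal axis) for the basement membrane genes (left) and cholesterol synthesis genes (right) named in the text, with 1 point per litter and a bar at the mean. On the left all points lie right of 0 except in Hspg2 and Nid2, with litter 1 far out in Col4a3, Col4a4 and Lama2, and on the right all points lie left of 0 except in Dhcr7 and Ebp.

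Among the steroid genes of Leydig cells, of which none was called, Star, Cyp11a1 and Cyp17a1 were higher at 48 h in litters 1 and 2, and litter 3 was mixed. Star, which carries cholesterol into the mitochondrion, stood at 34.6, 56.2 and 27.1 CPM at 12 h and at 59.7, 72.4 and 64 CPM at 48 h (0.78 ± 0.15, limma adjusted p = 0.114). Every 48 h library was above every 12 h library, and the 48 h levels were near or above those of 0 h, 35.8, 54.7 and 62.1 CPM, while 2 h had held 65.8, 194 and 94.8 CPM. Cyp17a1, the enzyme that commits steroids to the androgen branch, stood at 8.79, 26.2 and 9.22 CPM at 12 h and at 31, 36.3 and 8.82 CPM at 48 h (0.70 ± 0.30, 0.385). At 0 h it had been at 0.335, 2.08 and 0.276 CPM, so litter 3 kept its 12 h level while litter 1 went further up. Cyp11a1, the side-chain cleavage enzyme that makes the first steroid, followed the same litters, with 9.94, 27.7 and 10.8 CPM and then 25.8, 33.6 and 11.8 CPM (0.56 ± 0.22, 0.346). Hsd17b3, which completes testosterone, differed by 0.39 ± 0.14 without overlap (0.315), and the lipoprotein receptor Scarb1 by 0.03 ± 0.14. The LH receptor Lhcgr stood at 1.24, 5.51 and 1.54 CPM and then at 6.79, 8.26 and 0.888 CPM (0.63 ± 0.38, 0.527), near the filter. Nr5a1, the factor that switches on steroid genes, differed by -0.01 ± 0.05. Of the 11 Leydig markers tested 4 (Star, Cyp11a1, Hsd17b3 and Akr1c14) were higher in all 3 litters and 0 lower, and all but Cyp11a1 of these did not overlap. Of all genes 20.3% were higher and 16.8% lower in all 3 litters, and 7.5% were higher without overlap. The Leydig markers had a median of 0.29 over the means and of 0.16, 0.20 and -0.01 within litters 1, 2 and 3.

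**Figure D4:**
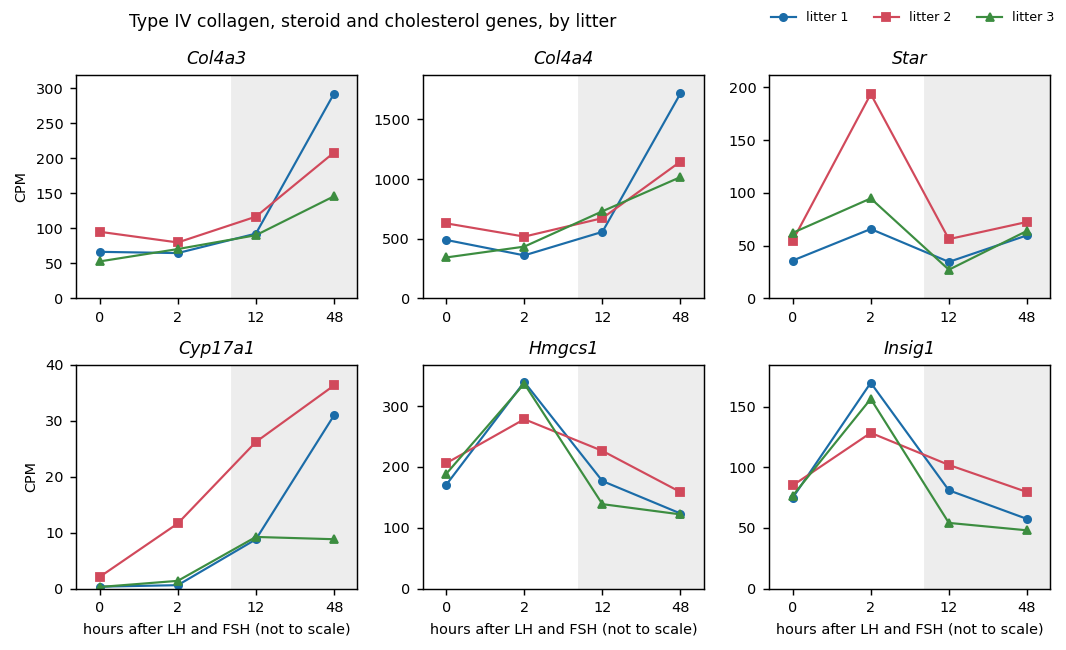
CPM (vertical axes, linear from 0) of Col4a3, Col4a4, Star, Cyp17a1, Hmgcs1 and Insig1 at 0, 2, 12 and 48 h after LH and FSH (horizontal axis, not to scale), with 1 line per litter and the 2 times compared shaded. Between 12 h and 48 h all litters go up in Col4a3, Col4a4 and Star and down in Hmgcs1 and Insig1, whereas Cyp17a1 goes up in litters 1 and 2 and stays at 9.22 and 8.82 CPM in litter 3.

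On the FSH side, Inha, the alpha subunit of inhibin, stood at 260, 260 and 219 CPM at 12 h and at 334, 411 and 268 CPM at 48 h (0.44 ± 0.08, limma adjusted p = 0.105). The groups did not overlap, and litter 2 had the largest ratio, 1.58. Its partner subunits went their own ways, Inhbb at 673, 785 and 775 CPM and then 819, 1083 and 715 CPM (0.21 ± 0.11), and Inhba at -0.07 ± 0.10. Fst, which binds activin, differed by 0.49 ± 0.13 (0.209), was higher in all 3 litters and overlapped between the times. The FSH receptor Fshr differed by 0.07 ± 0.10, Amh by 0.21 ± 0.09 and the Sertoli cell factor Sox9 by 0.21 ± 0.07. Of 14 Sertoli cell markers tested none was called, and 7 were higher in all 3 litters and 0 lower, against 20.3 and 16.8% of all genes, at a median of 0.16. Only Inha did not overlap, a share near the 7.5% of all genes. Gata4 and Clu, the pair with the highest mean in that list, differed by -0.02 ± 0.05 and -0.11 ± 0.07. Junction genes of the barrier that Sertoli cells form had a median of 0.10, with 7 of 13 higher in all 3 litters and none called.

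No gene of the early hormone response was called. Of 15 cyclic AMP target genes 4 (Nr4a1, Gem, Crem and Sik1) were higher in all 3 litters and 0 lower, against 20.3 and 16.8% of all genes. Gem and Crem did not overlap, against 7.5% of all genes, and the median was -0.01. Nr4a1, an orphan receptor induced by cyclic AMP in Leydig cells, differed by 0.35 ± 0.12 (limma adjusted p = 0.291) and Crem, a cyclic AMP responsive regulator, by 0.26 ± 0.08 (0.28), the latter without overlap. Of 19 immediate early genes 1 (Btg2) was higher and 5 (Jun, Srf, Klf6, Egr2 and Egr3) lower in all 3 litters, against the same 20.3 and 16.8%, at a median of -0.11. Fos differed by 0.02 ± 0.17 and Egr1 by -0.13 ± 0.06. Egr3, chosen after its values were seen, stood at 12.6, 20.8 and 14.5 CPM and then at 9.27, 12.2 and 10.1 CPM (-0.54 ± 0.11, 0.127), and its groups did not overlap.

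Of 14 tested targets of p53 and inhibitors of the cell cycle none was called, and 11 had a mean difference above 0. In the list 9 were higher and 1, Cdkn1c, lower in all 3 litters, and 7 did not overlap upwards, against 20.3, 16.8 and 7.5% of all genes. The median was 0.28, and 0.28, 0.18 and 0.41 in litters 1, 2 and 3. Cdkn1a, the inhibitor p21, stood at 96.7, 124 and 89.7 CPM at 12 h and at 149, 167 and 196 CPM at 48 h (0.72 ± 0.12, limma adjusted p = 0.105). Litter 3 had the largest ratio, 2.19, and the 0 h levels, 111 to 159 CPM, overlapped both times. Tp53inp1 went from 25 to 31.3 CPM to 40.6 to 43 CPM (0.58 ± 0.08, 0.0915) and Ccng1 from 193 to 245 CPM to 254 to 289 CPM (0.37 ± 0.07, 0.114). Phlda3 (0.33 ± 0.06), Sesn2 (0.31 ± 0.06) and Eda2r (0.65 ± 0.16) did not overlap either, while the p53 ligase Mdm2 differed by 0.25 ± 0.08 with overlap. Genes of proliferation were near 0: Mki67 differed by 0.06 and Top2a by 0.05, and the medians were 0.03 over 27 DNA replication genes and -0.09 over 25 mitosis genes. Within litters the mitosis median was 0.06, 0.09 and -0.43, with litter 3 apart.

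Metallothioneins, which bind zinc and copper and respond to glucocorticoids and metals, were higher in each litter. Mt1 stood at 15.1, 16.1 and 14.7 CPM at 12 h and at 29.9, 23.7 and 25.2 CPM at 48 h (0.74 ± 0.10, limma adjusted p = 0.093), and Mt2A at 4.24 to 4.97 CPM and then 6.48 to 13.6 CPM (0.91 ± 0.19, 0.131). Neither overlapped. They belong to a list of 11 glucocorticoid-responsive genes tested, of which 6 were higher in all 3 litters and 0 lower, 5 (Mt1, Mt2A, Errfi1, Klf9 and Pdk4) did not overlap, and the median was 0.34. Of all genes 20.3% were higher and 16.8% lower in all 3 litters and 7.5% higher without overlap, and none of the 11 was called. Errfi1, a feedback inhibitor of the EGF receptor, differed by 0.57 ± 0.15, Klf9 by 0.41 ± 0.13 and Fkbp5, a chaperone of the glucocorticoid receptor, by 0.25 ± 0.08. Sgk1, Per1 and Tsc22d3 differed by 0.06, 0.10 and 0.07.

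Most genes that load peptides onto MHC class I had higher values at 48 h, but none was called. Chemokine and inflammation genes, of which none was called either, differed by litter as a list, and so did macrophage markers. Of 7 antigen-processing genes tested 6 were higher in all 3 litters and 5 (Tap1, Tap2, Psmb9, Nlrc5 and B2m) did not overlap, against 20.3 and 7.5% of all genes, at a median of 0.36. The peptide transporter Tap1 stood at 19.1, 18.1 and 20.7 CPM and then at 26.6, 25.4 and 30.1 CPM (0.48 ± 0.08, limma adjusted p = 0.102), and B2m, the light chain of MHC class I, at 916, 845 and 878 CPM and then at 960, 957 and 1158 CPM (0.22 ± 0.07, 0.295). Of 14 chemokine, interleukin and inflammation genes 5 (Cxcl12, Icam1, Nfkbia, Tnfaip3 and Csf1) were higher in all 3 litters. All but Tnfaip3 of these did not overlap, and both counts stand against the same shares. The median was 0.33, and 0.37, -0.04 and 0.36 in litters 1, 2 and 3. Cxcl12, a chemokine of stromal cells, stood at 8.98, 6.71 and 9.87 CPM and then at 35.7, 11.2 and 13.1 CPM (0.97 ± 0.27, 0.218), with litter 1 highest. Icam1 and Csf1, an adhesion protein and the growth factor of macrophages, differed by 0.43 ± 0.12 and 0.28 ± 0.06 without overlap. The summed level of the 14 macrophage markers went from 203 to 386 CPM in litter 1 and from 262 to 493 CPM in litter 3, and was 64.7 and 64.6 CPM in litter 2. Of the 13 tested 1, Lyz2, was higher in all 3 litters, 12 had a mean difference above 0, and Cd163 was at 0 in all 6 libraries. Csf1r, the receptor of macrophages for that growth factor, stood at 17.7, 4.43 and 25.2 CPM and then at 29.9, 3.03 and 37 CPM. C1qc, a complement component made by macrophages, stood at 1.98, 0.696 and 3.84 CPM and then at 12.2, 0.594 and 21.7 CPM. The list's median was 0.99, -0.24 and 0.73 in litters 1, 2 and 3. In litter 2 the sum of these markers was level, and all tested but Lyz2 were lower at 48 h. Tap1, B2m, Cxcl12, Sectm1a and Tgm2 were higher there at 48 h, with ratios of 1.40, 1.13, 1.67, 3.02 and 1.75. These genes were set beside the markers after their values were seen, in 1 litter. None of them overlapped between the times, which fixed their direction in that litter in advance. The litter 2 median was 0.16 for the antigen-processing list and -0.04 for the chemokine and inflammation list. The part of macrophages in these results was not tested.

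Matrix proteases and the matrix outside the basement membrane differed in both directions. Of 19 proteases and inhibitors none was called, and 10 were higher and 1, Timp2, lower in all 3 litters, against 20.3 and 16.8% of all genes, at a median of 0.19. The 5 that did not overlap were Adamts15, Adamts9, Adamts1, Mmp11 and Timp3, against 7.5% of all genes. Mmp11 averaged 0.0102 CPM in the baseline experiment and 119.7 CPM in the hormone experiment, and Timp2 0.975 and 860.7 CPM. Like Mmp28, both are among the 218 genes whose counting may differ between the 2 experiments. The proteoglycan-cleaving enzymes Adamts15 (1.02 ± 0.24), Adamts9 (0.86 ± 0.21) and Adamts1 (0.54 ± 0.12) did not overlap, Adamts9 standing at 12.8 to 20 CPM and then at 26.6 to 40.2 CPM. Their inhibitor Timp3 differed by 0.25 ± 0.05 (limma adjusted p = 0.12), also without overlap. In contrast, of 24 crosslinking and matricellular genes 4 (Fbn2, Vcan, Loxl3 and Loxl4) were higher and 7 lower in all 3 litters, the higher ones a smaller share than the 20.3% of all genes and the lower ones a larger share than the 16.8%. None was called, and the median was -0.12. Tnc, a matrix protein of remodelling tissue, stood at 50.7, 33.4 and 77.9 CPM and then at 15.3, 10.4 and 59.2 CPM (-1.22 ± 0.24, 0.122), and litter 3 moved least. Eln, elastin, went from 7611, 4807 and 9710 CPM to 4974, 3105 and 8235 CPM (-0.49 ± 0.10, 0.14), and Fbln5, which helps to assemble elastic fibres, differed by -0.68 ± 0.11 (0.102). The 3 genes were lower in all 3 litters and overlapped between the times. The summed level of the 11 stromal and fibroblast markers was mostly Col1a1 and Col3a1. In litters 1, 2 and 3 it went from 27954 to 25726, 20973 to 16897 and 47157 to 37677 CPM. Its part in these results was not tested. At 0 h the sum in litter 3 had been 29471 CPM. Of the 10 markers tested 7 had a mean difference below 0 and 3 above it, Pdgfra the most at 0.70.

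Signalling genes were mixed, and none was called. Of 8 Notch genes tested 4 were higher and 1, Jag1, lower in all 3 litters, and of 24 genes of the inhibin, activin, BMP and TGF-beta families 5 were higher and 6 lower, against 20.3 and 16.8% of all genes. The medians were 0.11 and -0.02. The receptor Notch1 stood at 36.1, 44.8 and 36.4 CPM and then at 71.5, 53.2 and 48.6 CPM (0.54 ± 0.13, limma adjusted p = 0.182), the ligand Jag2 at 14.5 to 19.1 CPM and then 21.7 to 25.4 CPM (0.48 ± 0.08, 0.105), and the ligand Jag1 at 60.5 to 87.2 CPM and then 50.5 to 68.3 CPM (-0.35 ± 0.06, 0.105). Jag1 was lower in all 3 litters with overlap, and the other 2 did not overlap. In the list of the inhibin, activin, BMP and TGF-beta families 1 gene, Inha, was higher and 3 were lower without overlap. The shares of all genes were 7.5 and 4.36%. The 3 were the antagonist Nog (-0.51 ± 0.12), the ligand Bmp3 (-0.51 ± 0.10) and the inhibitor Smad6 (-0.41 ± 0.11). Bmp6, named above as lower without overlap, was not a member of this list. The lipid exporter Abca1, which sends cholesterol out of cells, stood at 115, 89 and 142 CPM and then at 215, 126 and 204 CPM (0.64 ± 0.09, 0.0915), and the kinase subunit Prkar2b differed by 0.54 ± 0.12 (0.143) without overlap.

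Cytosolic ribosomal protein genes were slightly higher in each litter. All 29 tested had a mean difference above 0, 26 were higher in all 3 litters and 17 did not overlap, against 20.3 and 7.5% of all genes, and none was called. The median was 0.15, with litter medians of 0.17, 0.12 and 0.13. Rplp0, a stalk protein of the large subunit, stood at 1469, 1449 and 1458 CPM and then at 1668, 1605 and 1635 CPM (0.16 ± 0.06, limma adjusted p = 0.291). The 0 h libraries held 1406 to 1506 CPM. Chaperones of the endoplasmic reticulum were higher in all 3 litters in 11 of 16, against the same 20.3%, with none called and a median of 0.11, and Hspa5, which leads them, stood at 738 to 867 CPM and then at 894 to 1017 CPM (0.25 ± 0.05, 0.131). Transcripts of the mitochondrial genome differed by litter, with medians of -0.45, 0.32 and -0.38.

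Markers of the other cells of the testis were detected at both times, and none was called. The 12 contractile genes of peritubular myoid cells had a median of -0.09, with members from -0.38 to 0.52 and litter medians of 0.20, -0.19 and -0.14. In that list 3 were higher and 3 lower in all 3 litters, against 20.3 and 16.8% of all genes, with Acta2 at -0.09 ± 0.07, and the 16 germ cell markers tested a median of -0.04, with Ddx4 at 2.79 to 6.09 CPM and then 3.27 to 6.18 CPM. Of 6 endothelial markers tested 1 (Egfl7) was higher and 1 (Eng) lower in all 3 litters, against the same 20.3 and 16.8%, and Emcn was at 0 in all 6 libraries.

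Over the 40 lists limma called 0 members. An unadjusted p under 0.05 was reached by 7.91% of all genes upwards and by 5.23% downwards. Upwards it was reached by 8 of the 14 p53 and cell cycle genes, 5 of the 7 antigen-processing genes, 5 of the 11 glucocorticoid-responsive genes, 19 of the 29 ribosomal protein genes and 6 of the 16 chaperones, and downwards by 0 in each of these lists. It was reached upwards by 4 of 11 Leydig, 4 of 14 Sertoli cell and 4 of 13 macrophage markers, with 0 downwards in each list. The counts were 3 of 15 cyclic AMP targets and 3 of 14 chemokine and inflammation genes, again with 0 downwards. In the lists that moved both ways, the counts higher and lower were 9 and 3 of 19 proteases and inhibitors, 3 and 6 of 24 crosslinking and matricellular genes, 1 and 3 of 19 immediate early genes, 4 and 1 of 8 Notch genes, 3 and 5 of 24 genes of the inhibin and BMP families and 2 and 2 of 12 myoid markers.

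**Figure D5:**
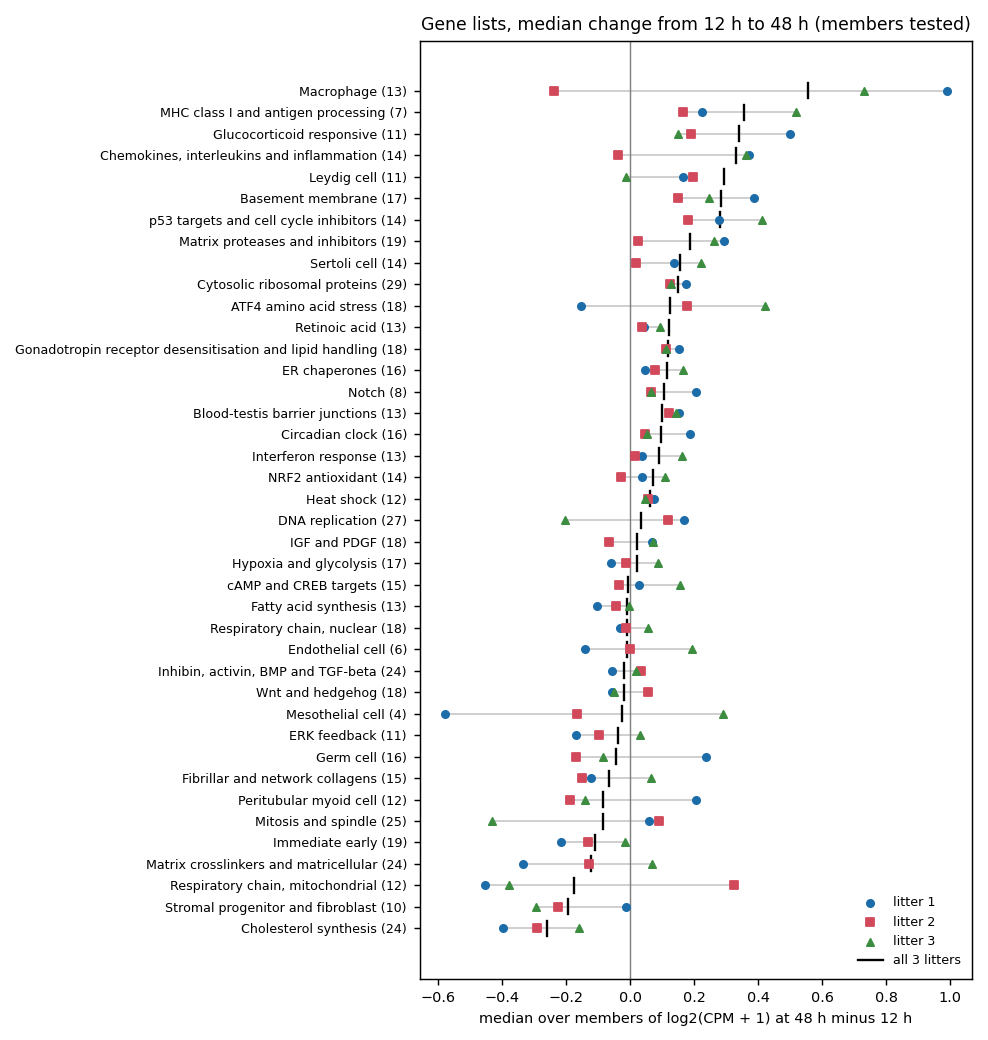
Median over the tested members of each of 40 gene lists of the difference in log2(CPM + 1) between 48 h and 12 h (horizontal axis), with 1 point per litter, a bar for the median over the 3-litter means, and the number of members tested in brackets. The litter points lie close together and above 0 for the ribosomal and basement membrane genes, below 0 for cholesterol synthesis, and far apart for macrophage markers (-0.24 to 0.99).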

How the data were processed

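Bulk messenger RNA of the 12 h and 48 h cultures was compared. The values deposited by the authors are in CPM, reads of a gene over the total of its library. Per the submitters' processing notes, STAR was used with the rat genome mRatBN7.2, and how genes were counted is not given in the sources used here. Per the labels' protocols the libraries were non-directional, so overlapping genes on opposite strands share reads. All CPM values were whole multiples of 1 read within 0.01 read (100%), so reads were recovered.

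Genes with at least 1 CPM in 3 of the 6 libraries were fitted as log2(CPM + 1) in limma 3.58.1 (R 4.3.3) with time and litter and an empirical Bayes trend, with 2-sided p-values and Benjamini-Hochberg adjustment over 12198 genes. A pseudocount of 1 CPM understates changes of low genes. The labels name the litters, so samples were paired; the same-litter correlations are given above. edgeR 4.0.16 and DESeq2 1.42.0 on recovered reads, other filters, pseudocounts, scalings and left-out libraries were alternatives. The procedure was tested on simulated data, in which 200 of 12198 genes were changed and genes varied independently of each other. There limma called 205 genes, of which 18 were false, and recovered 90% of 2-fold and 97% of 4-fold changes.

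Named were the called genes, then the largest non-overlapping changes with at least 5 CPM, up to 15 each way, up to 2 members per list by mean, and a hormone panel, of which Hsd3b1 and Pecam1 were not analysed here. Some genes of these lists and the panel are not reported here. Other list members were named after their values were seen. The comparison, its members and the 40 lists were chosen with earlier results of these data known. Of 700 list symbols 36 were not analysed here. Another 7 list entries were matched through synonyms, among them Saa3 to Saal1, Cst9 to Cst9l and Rpl37 to Rpl37l1. Such a match may be a different gene, and where tested it is counted in its list. Promoters came from RefSeq on GRCr8, not the build of the reads, and no read coordinates were used.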

Additional observations from a re-analysis of the deposited data

How the results depend on the processing

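The numbers of called genes depended on the processing. The 3 higher and 3 lower genes became 0 and 0 with no replicate block and with no filter, 53 and 34 in the fit over all 12 libraries with the block, and 93 and 73 with DESeq2. They were 3 and 3 or 3 and 4 with edgeR, other pseudocounts, a filter of 5 CPM and other scalings. Leaving out 1 library or litter gave 0 to 90 higher and 0 to 56 lower genes, and with the block the partner of a left-out library then carried no information. The causes were not tested. Of 566 values of the 30 genes named by rank none changed direction. These genes were chosen for having no overlap, which fixed their direction in advance for left-out libraries and other pseudocounts. In the panel 26 of 493 values did, and in the other named genes 9 of 1613. Over the left-out libraries Scarb1 ran from -0.172 to 0.24, Inhba from -0.165 to 0.0523, Fos from -0.236 to 0.144, Mki67 from -0.0715 to 0.232, Top2a from -0.0747 to 0.235, Ddx4 from -0.0741 to 0.236, Nid2 from -0.00502 to 0.061, Dhcr7 from -0.0998 to 0.214 and Gata4 from -0.0362 to 0.0108. Fos was -0.00211 with a pseudocount of 5 and -0.0100 with edgeR. List medians, alternatives added after seeing the data, changed sign in 63 of 760 values, in 14 lists. Depth limits values near the filter of 1 CPM, where 1 read was worth 0.046 to 0.0633 CPM.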
